A study of Homo sapiens with 6 samples.

Results

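The MAPK feedback genes examined here are 10 genes: the phosphatase genes DUSP1, DUSP4, DUSP5 and DUSP6, the Sprouty genes SPRY2 and SPRY4, the Spred genes SPRED1 and SPRED2, and the early response genes IER3 and PHLDA1. They were chosen as a list by name, with earlier results of these data known. Matching to the files was by Entrez ID, 10 of 40448 gene IDs. Their RNA levels were compared between clones of KYSE150, a cell line established from a squamous carcinoma of the human oesophagus. The 3 mock clones (1, 4 and 5) carried the pIRES2-EGFP vector, and the 3 NCCRP1 clones (1, 6 and 17) carried a vector expressing human NCCRP1. Both groups are stable transfectants grown from single clones, and each clone gave 1 library, made with an Ion Total RNA-Seq kit from total RNA freed of ribosomal RNA. The promoter that drives NCCRP1 is not given in the sources used here. By the run names the deposited files carry, run 15 held NCCRP1 clone 1 beside mock clones 1 and 4, and run 14 held mock clone 5 beside NCCRP1 clones 6 and 17.

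Mitogen-activated protein kinases such as ERK carry growth factor signals from receptors through RAS, RAF and MEK to the nucleus. ERK activity induces genes that damp the same cascade: DUSP phosphatases remove the activating phosphates from the kinases, and Sprouty and Spred proteins act upstream at the level of RAS and RAF. In squamous epithelium the cascade is driven largely by the EGF receptor, and the RNA of several of these genes is used as a readout of ERK output. IER3, an early response gene induced by both ERK and NF-kB signalling, modulates ERK dephosphorylation and cell survival. PHLDA1 encodes a pleckstrin homology-like domain protein induced by growth factors.

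Values are log2 RPKM as deposited, where RPKM is reads scaled to gene length and library size. No value lay below 0, so a gene at or under 1 RPKM cannot be told from one with no reads. The 6 libraries held 12477 to 12821 genes above 0, at estimated depths of 12290000 to 18070000 reads. NCCRP1 was listed at 0 in every mock clone and had a log2 RPKM of 6.19 in NCCRP1 clone 1, 8.07 in clone 6 and 6.71 in clone 17. All 13 squamous epithelial markers were high enough to be tested. Their mean was higher in NCCRP1 clones for 3 and lower for 10 (median log2 difference -0.31), with 0 passing limma's test and 3 lower at an unadjusted p under 0.05 (KRT15, KRT14 and PKP1), beside 3.79% of all genes lower at that p. Their summed level was 1850 to 2290 RPKM in mock and 1270 to 2480 RPKM in NCCRP1 clones, and their part in the differences described here was not tested. The 7 housekeeping genes had a median difference of 0.04. Of the markers of other cell types, 7 of 10 fibroblast, 6 of 8 endothelial and 7 of 9 leukocyte genes were listed at 0 in all 6 libraries, among them DCN, PECAM1 and PTPRC. Their summed levels were 14.8 to 17.7 RPKM in mock and 12.2 to 20.6 RPKM in NCCRP1 clones for fibroblast, 7.49 to 10.5 and 7.33 to 11.0 RPKM for endothelial, and 38.3 to 54.2 and 49.0 to 65.3 RPKM for leukocyte markers. The leukocyte sum came mainly from CD68, at log2 RPKM 5.37 ± 0.26 in mock and 5.78 ± 0.25 in NCCRP1 clones (SD, n = 3 each). In bulk RNA, fewer cells of a type and less RNA per cell cannot be told apart. The labels name separate clones but no separate cultures of a clone, so every p-value here rests on the variation among 6 libraries, which may be technical in part.

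Of the 10 feedback genes, 8 were above 0 in all 6 libraries and were tested, and DUSP6 and SPRY4 were listed at 0 in all 6. IER3, DUSP5, PHLDA1 and DUSP1 were higher in each NCCRP1 clone than in all mock clones, by a mean log2 difference of 0.47 to 0.81. SPRY2, SPRED1, SPRED2 and DUSP4 overlapped between the groups, with log2 differences of -0.10 to 0.06. No member passed limma's test over all 12737 genes tested at an adjusted p of 0.05 (0 of 8, with 4 at an unadjusted p under 0.05). Across all genes tested 0.102% passed (0.0707% higher and 0.0314% lower in NCCRP1 clones), 7.33% had an unadjusted p under 0.05, and 12.8% had groups that did not overlap. Higher in NCCRP1 clones alone, 5.71% of all genes had groups that did not overlap and 3.54% had an unadjusted p under 0.05, against 4 of the 8 members for each. Groups apart in the lower direction were found for 7.05% of all genes and for 0 members. Because the members were chosen with earlier results of these data known, these shares describe the list and do not test it for enrichment. The median log2 difference of the 8 tested members was 0.26, beside -0.02 over all genes tested. It lies in the gap between 0.06 and 0.47 where no member stands, and was 0.54 when genes with a mean log2 RPKM under 1 (DUSP4 and SPRY2) were left out.

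**Figure D1:**
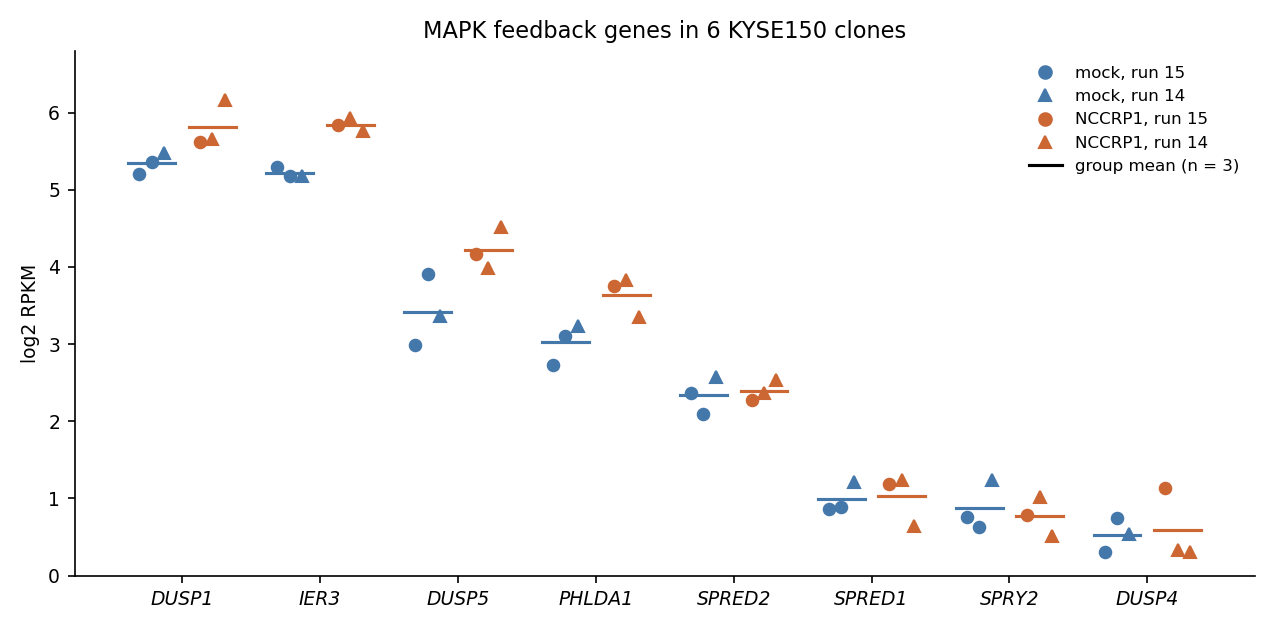
Log2 RPKM (vertical axis) of the 8 feedback genes above 0, ordered by their mean level, in 3 mock (blue) and 3 NCCRP1 (orange) clones; circles are run 15, triangles run 14, and horizontal lines are group means. For DUSP1, IER3, DUSP5 and PHLDA1 all orange points lie above all blue ones, and for the other 4 genes they overlap.

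The levels themselves formed steps. RPKM is per length, which allows a rough comparison between genes. It does not account for how reads were assigned to genes, and strand use in the counting is not given. Over the 6 libraries DUSP1 (mean log2 RPKM 5.58 ± 0.33, SD) and IER3 (5.53 ± 0.35) were the highest and did not differ beyond their spread, with DUSP1 the higher in 3 of 6 libraries. DUSP5 followed at 3.82 ± 0.56 and PHLDA1 at 3.34 ± 0.41, with overlapping ranges although DUSP5 was the higher in all 6 libraries. SPRED2 stood at 2.37 ± 0.17, below every PHLDA1 value and above every SPRED1 value. SPRED1 (1.01 ± 0.24), SPRY2 (0.83 ± 0.26) and DUSP4 (0.56 ± 0.33) lay close to the lowest value listed, and neighbours in that order overlapped.

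Among the phosphatases, DUSP1 encodes a nuclear enzyme that acts on p38, JNK and ERK and is itself an immediate early gene. Mock clones 1, 4 and 5 had a log2 RPKM of 5.20, 5.36 and 5.47, and NCCRP1 clones 1, 6 and 17 had 5.62, 5.66 and 6.16. NCCRP1 clone 17 stood highest, and NCCRP1 clones 1 and 6 lay just above mock clone 5, so the groups were apart by a narrow margin. In RPKM these are 36.9, 41.0 and 44.3 against 49.3, 50.5 and 71.4. The log2 difference was 0.47 (SE 0.17, 95% interval 0.09 to 0.85), a 1.38-fold higher mean that missed the threshold (limma adjusted p = 0.527). Without NCCRP1 clone 17 the difference was 0.30.

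The bases just before the DUSP1 start are shown because this is a member with a higher value in each NCCRP1 clone and its promoter holds a full cyclic AMP response element, a motif of many early response genes. The 250 bases before the start, on the minus strand of chr5:172771196-172771445 (RefSeq, GRCh38.p14), read 5′ to 3′ with matches to TGACG and TATAAA, on either strand, in capitals:
DUSP1: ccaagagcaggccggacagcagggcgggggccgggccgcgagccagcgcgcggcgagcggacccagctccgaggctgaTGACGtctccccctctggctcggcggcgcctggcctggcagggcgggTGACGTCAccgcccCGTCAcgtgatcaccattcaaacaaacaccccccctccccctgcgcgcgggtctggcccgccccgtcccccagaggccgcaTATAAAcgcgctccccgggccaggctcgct

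This window held 1 full cyclic AMP response element (TGACGTCA), beginning 125 bases before the start, and 1 TATAAA, beginning 30 bases before it. The core TGACG matched 4 times, counting those inside the full element. Among 34788 distinct RefSeq windows of 250 bases, searched on both strands, 1.64% held TGACGTCA, 21.2% TGACG and 10.8% TATAAA. The windows searched were those of 10 RefSeq starts of 7 members, without IER3, DUSP4 and DUSP5, and among them TGACGTCA matched in the DUSP1 window alone. TGACG matched once each in windows of SPRY4 and SPRY2, and TATAAA once in a window of SPRED2. The ETS core CCGGAA (14.5% of all windows) matched once each in windows of PHLDA1 and SPRY2. TGANTCA, the AP-1 site (6.59% of all windows), the CArG box of serum response factor (1.17%) and the NF-kB site (5.21%) matched in no window of these 7 members. A match describes letters and is not evidence of binding.

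DUSP5, on chromosome 10, encodes a nuclear phosphatase selective for ERK and had the widest difference of the list. Its log2 RPKM for mock clones 1, 4 and 5 was 2.99, 3.91 and 3.36, against 4.17, 3.98 and 4.52 for NCCRP1 clones 1, 6 and 17. Mock clone 4 came within a log2 of 0.1 of NCCRP1 clone 6, and mock clone 1 was the lowest of all. The mean log2 difference was 0.81 (SE 0.23, 95% interval 0.30 to 1.32), or 1.75-fold (limma adjusted p = 0.36). DUSP5 also varied more between clones of a group than most genes of its level: its within-group SD was 0.38, and 93.1% of 2476 genes within a log2 of 0.5 of its mean had a lower SD.

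The chromosome 10 neighbours of DUSP5 did not share its direction. The median shift of its 30 nearest expressed neighbours was -0.46 in NCCRP1 clone 6 and between 0.01 and 0.30 in the other 5 libraries, relative to each gene's mean, a group difference of -0.26. With the neighbours' shift subtracted, the DUSP5 difference was 1.07 (limma adjusted p = 0.191).

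DUSP4, a nuclear phosphatase of ERK and JNK, was near the floor, with log2 RPKM of 0.31, 0.75 and 0.54 for mock clones 1, 4 and 5 against 1.13, 0.33 and 0.31 for NCCRP1 clones 1, 6 and 17. NCCRP1 clone 1 was the highest of all and the other NCCRP1 clones were among the lowest. The difference was 0.06 with a 95% interval of -0.53 to 0.65, which leaves changes of up to 1.56-fold in reach (limma adjusted p = 0.993). DUSP6, the cytoplasmic ERK phosphatase, was listed at 0 in every library. A listed 0 is not proof of silence, since TPT1 and UBB, which cells use in general, were at 0 throughout too, like 39.0% of protein-coding gene IDs.

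**Figure D2:**
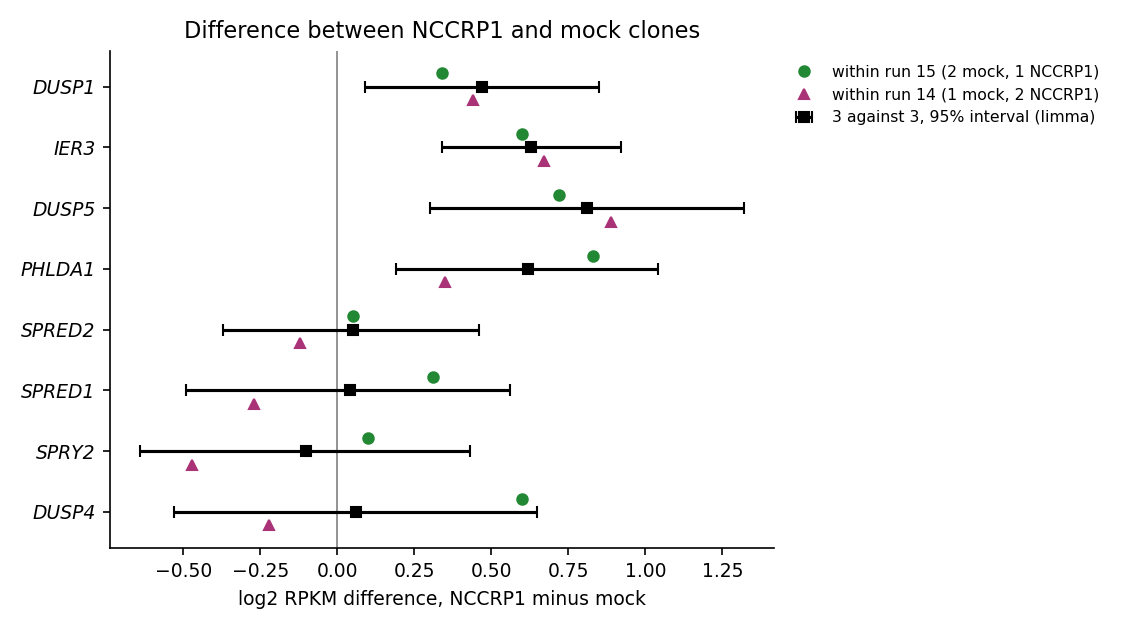
Log2 RPKM difference, NCCRP1 minus mock (horizontal axis), for the 8 tested genes: squares with bars are the 3 against 3 estimate and its 95% interval from limma, and circles and triangles the differences within run 15 and run 14. The intervals of DUSP1, IER3, DUSP5 and PHLDA1 lie above 0 before adjustment, and the other 4 genes have a positive value in run 15 and a negative one in run 14.

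The upstream inhibitors had log2 differences near 0. SPRY2, which intercepts receptor signals on the way to RAS and RAF, had a log2 RPKM of 0.76, 0.63 and 1.24 for mock clones 1, 4 and 5, against 0.79, 1.02 and 0.51 for NCCRP1 clones 1, 6 and 17. The highest value was that of mock clone 5 and the lowest that of NCCRP1 clone 17. Its difference was -0.10 (95% interval -0.64 to 0.43, limma adjusted p = 0.984). SPRY2 lies on chromosome 13, and its 30 nearest expressed neighbours had a median difference of -0.37, and with it subtracted the SPRY2 difference was 0.27 (limma adjusted p = 0.842). SPRY4, of the same family, was listed at 0 in all libraries.

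SPRED1, a membrane-bound inhibitor that brings neurofibromin to RAS, had a log2 RPKM of 0.87, 0.89 and 1.21 for mock clones 1, 4 and 5, against 1.19, 1.24 and 0.64 for NCCRP1 clones 1, 6 and 17. NCCRP1 clone 17 was below every mock clone and the other NCCRP1 clones were at or above mock level. The difference was 0.04 (95% interval -0.49 to 0.56, limma adjusted p = 0.995). SPRED2 was the steadiest of the inhibitors, at 2.37, 2.09 and 2.57 for the mock clones against 2.28, 2.36 and 2.53 for the NCCRP1 clones, which overlapped. Its 95% interval, -0.37 to 0.46 around 0.05, corresponds to 0.774-fold to 1.38-fold (limma adjusted p = 0.99).

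IER3 separated the groups most evenly. Mock clones 1, 4 and 5 had a log2 RPKM of 5.29, 5.18 and 5.18, against 5.84, 5.93 and 5.76 for NCCRP1 clones 1, 6 and 17, or 39.2, 36.2 and 36.1 RPKM against 57.1, 60.9 and 54.3 RPKM. The clones of each group lay close together, and the gap between the groups was wider than the range within either. The log2 difference was 0.63 (SE 0.13, 95% interval 0.34 to 0.92), a 1.54-fold higher mean. IER3 had the lowest p of the list and ranked 55 of 12737 genes, which did not reach the threshold (limma adjusted p = 0.142). The difference stayed between 0.58 and 0.67 whichever clone was left out.

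The spread of IER3 between clones was small for its level. Its within-group SD was 0.08, against a median of 0.19 over 1413 genes within a log2 of 0.5 of its mean, and 5.1% of those genes had a lower SD. IER3 lies on chromosome 6, and its 30 nearest expressed neighbours had a median difference of -0.09, opposite in sign to its own. The neighbours' shift was 0.22 in mock clone 1 and between -0.07 and 0.00 in the other libraries, relative to each gene's mean. With this shift subtracted, the IER3 difference was 0.72 (limma adjusted p = 0.0522).

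**Figure D3:**
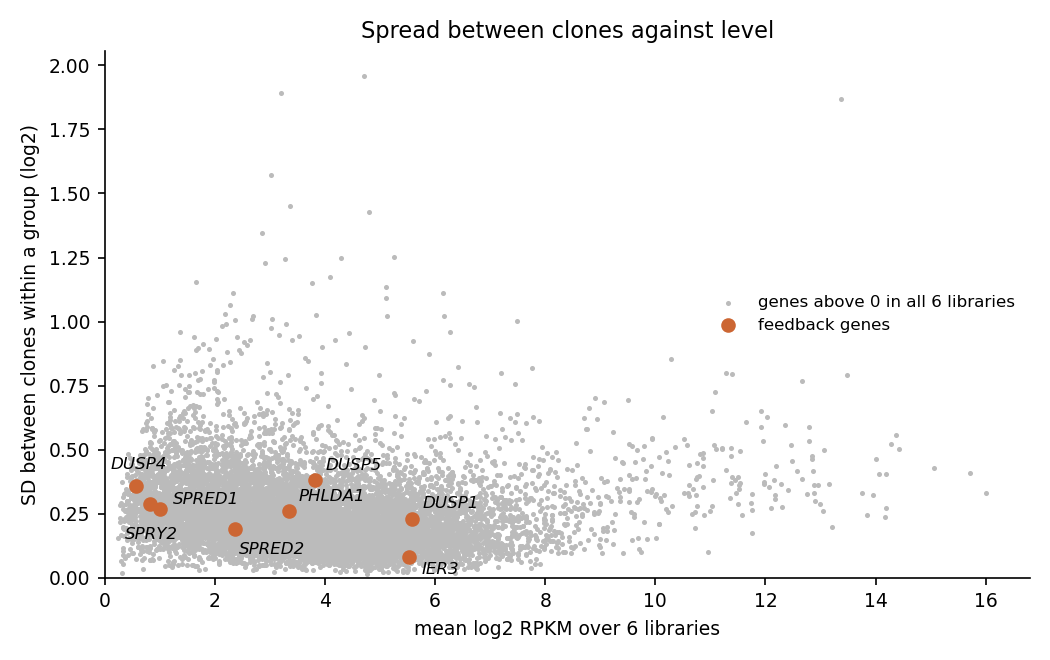
SD between clones within a group (vertical axis, log2) against mean log2 RPKM over 6 libraries (horizontal axis) for genes above 0 in all 6 libraries (grey) and the feedback genes (orange). IER3 sits near the lower edge at an SD of 0.08, and DUSP5, at 0.38, lies high among genes of its level.

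For PHLDA1 the log2 RPKM of mock clones 1, 4 and 5 was 2.73, 3.11 and 3.24, against 3.75, 3.83 and 3.35 for NCCRP1 clones 1, 6 and 17. NCCRP1 clone 17 was only slightly above mock clone 5, and mock clone 1 was the lowest. The difference was 0.62 (SE 0.19, 95% interval 0.19 to 1.04), a 1.53-fold higher mean (limma adjusted p = 0.415). The order of the NCCRP1 clones was not the same for the 4 genes. Clone 17 was the highest for DUSP1 and DUSP5 and the lowest for IER3 and PHLDA1, for which clone 6 was the highest. NCCRP1 itself ran from clone 6 (log2 RPKM 8.07) through clone 17 (6.71) to clone 1 (6.19), the order of none of the 4 genes. RefSeq places antisense genes over IER3 (IER3-AS1) and PHLDA1 (PHLDA1-AS1). Strand use in the counting is not given, so reads of the partners cannot be told apart. RefSeq also places POC1B-DUSP6 over DUSP6 and SPRY4-IT1 over SPRY4, the members listed at 0 throughout. Whether these overlaps bear on the listed 0 was not tested.

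For DUSP1, DUSP5, IER3 and PHLDA1 the exact two-sided permutation test of 3 against 3 gave p = 0.1, the smallest this design allows. Any gene whose groups do not overlap gives this p, so it adds nothing to the lack of overlap. Run and group are unevenly crossed, so the differences were also taken within each run, from 2 mock and 1 NCCRP1 clone in run 15 and 1 mock and 2 NCCRP1 clones in run 14. IER3 differed by 0.60 within run 15 and 0.67 within run 14, DUSP5 by 0.72 and 0.89, DUSP1 by 0.34 and 0.44, and PHLDA1 by 0.83 and 0.35. For these 4 genes a positive difference within each run follows from groups that do not overlap, so the within-run values show size and not direction. SPRY2 differed by 0.10 and -0.47, SPRED1 by 0.31 and -0.27, SPRED2 by 0.05 and -0.12, and DUSP4 by 0.60 and -0.22. The direction of these 4 turned between the runs.

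The low members rested on the fewest reads. The deposited values carry no counts, and the reads behind a value were approximated from the RPKM, the exonic length and the depth estimated from microRNA genes. DUSP1 rested on about 920 to 2100 reads per library, IER3 on about 620 to 1400 and PHLDA1 on about 660 to 2000. SPRY2 rested on about 60 to 110 reads, at which counting error alone is an SD of 0.19 on the log2 scale, beside a within-group SD of 0.29. For IER3 counting error was an SD of 0.06 at the lowest count, close to its whole spread of 0.08.

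The genes whose profile over the 6 libraries was most like that of IER3 were sought among 9663 other genes whose log2 RPKM averaged 2 or more. Likeness was the mean absolute difference between log2 values, each gene centred on its own mean. The 5 nearest were LOC407835 (0.042), AP3D1 (0.078), GPX4 (0.082), METTL5 (0.086) and TLE5 (0.089). All had groups that did not overlap, which follows largely from their having been chosen for likeness to IER3. LOC407835 is a pseudogene of MAP2K2, the gene of the ERK kinase MEK2, and may share reads with it. AP3D1, an adaptor complex subunit gene, GPX4, the gene of a lipid peroxide-reducing enzyme, and TLE5, a transcriptional corepressor gene, all lie on chromosome 19. Their 30 nearest expressed neighbours were higher in NCCRP1 clones too, by a median log2 of 0.47, 0.54 and 0.53, and with this subtracted AP3D1, GPX4 and TLE5 differed by 0.00, -0.01 and -0.05. Among the members, SPRED1 and SPRY2 had the most similar profiles (0.112), and IER3 was nearest to PHLDA1 (0.198). Neither pair was close beside other genes. The 5 genes nearest to SPRED1 by the same search lay at 0.038 to 0.05, those nearest to SPRY2 at 0.04 to 0.057, and those nearest to IER3 at 0.042 to 0.089.

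None of the other pathway genes on the lists passed limma's test over all genes with all 6 clones. Of the genes that score MAPK pathway activity together with 5 of the members, CCND1, encoding cyclin D1, stood at log2 RPKM 4.93 ± 0.05 in mock and 5.52 ± 0.41 in NCCRP1 clones (SD, n = 3 each; limma adjusted p = 0.451). EPHA2, a receptor tyrosine kinase gene, stood at 3.95 ± 0.13 and 4.23 ± 0.19 (limma adjusted p = 0.76). The ETS factor genes ETV4 (4.64 ± 0.03 and 4.33 ± 0.21) and ETV5 (1.68 ± 0.31 and 1.53 ± 0.10) had lower means in NCCRP1 clones, at limma adjusted p of 0.688 and 0.965. EPHA4 was listed at 0 throughout. ETV4 was thus lower in NCCRP1 clones without overlap, and CCND1 and EPHA2 were higher without overlap. These are 3 of 4 tested genes, beside 12.8% of all genes, on a list also chosen with earlier results known. CCND1 differed by 0.59, and by 0.38 without NCCRP1 clone 6, and ETV5 by -0.14, and by -0.32 and -0.01 without mock clones 1 and 5.

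Of the other dual-specificity phosphatase and Sprouty genes, 6 of 12 tested had a higher and 6 a lower mean (median 0.00). DUSP7, an ERK phosphatase gene, had a log2 difference of -0.44, DUSP10, which encodes a phosphatase of p38 and JNK, 0.29 and SPRY1 0.40, at limma adjusted p of 0.623 to 0.818. SPRY1 was listed at 0 in mock clone 4, without which it differed by 0.23, and by 0.62 without mock clone 5. Receptor, adaptor and RAS genes had 9 higher and 13 lower means of 22 (median -0.04). FGFR3, a fibroblast growth factor receptor gene, had a log2 RPKM of 3.86 ± 0.07 for mock against 2.91 ± 0.64 for NCCRP1 clones (limma adjusted p = 0.363) and FGFR2 at 4.39 ± 0.09 and 4.07 ± 0.19 (limma adjusted p = 0.691). Without NCCRP1 clone 1 the FGFR3 difference went from -0.95 to -0.58. The 30 nearest expressed neighbours differed by -0.27 for FGFR3 and -0.18 for FGFR2, and with the latter subtracted FGFR2 differed by -0.13. SHC1, the adaptor that couples receptors to RAS, stood at 5.20 ± 0.08 and 5.63 ± 0.06 (limma adjusted p = 0.396), with no overlap. FGFR3, FGFR2 and DUSP7 were lower without overlap too, and DUSP10 was higher without overlap. Groups were apart for 1 higher and 2 lower of the 22 receptor, adaptor and RAS genes. For the 12 phosphatase and Sprouty genes these were 2 and 2, beside 5.71% higher and 7.05% lower of all genes.

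The RAF, MEK and ERK list had 7 higher and 11 lower means of 18 (median -0.01). MKNK2, a kinase gene downstream of ERK, and MAP2K2, which encodes MEK2, had log2 differences of 0.58 and 0.68 (limma adjusted p of 0.325 and 0.396). Both lie on chromosome 19, where the 30 nearest expressed neighbours of MKNK2 differed by 0.47 and those of MAP2K2 by 0.19. With this subtracted MKNK2 differed by 0.11, and without mock clone 5 MAP2K2 differed by 0.42. MAP2K1, the gene of MEK1, had a difference of 0.33 (limma adjusted p = 0.777), and of 0.20 without mock clone 5 and 0.17 without NCCRP1 clone 6. The stress kinase list was even, with 7 higher and 7 lower of 14 (median 0.00). MAP2K6, a p38 activator gene, had a log2 RPKM of 0.79, 0.86 and 0.98 for mock clones 1, 4 and 5 and a listed 0, which can stand for no estimate, for the 3 NCCRP1 clones. It entered the test only through the mock clones, so no test of it is given. MAP2K6 remains among the 7 lower genes and in the median of its list.

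Immediate early genes had 15 higher and 10 lower means of 25 (median 0.09). JUN, NR4A1 and IER5, early response transcription regulators, had log2 differences of 0.47, 0.44 and 0.25, with overlapping groups (limma adjusted p of 0.573 to 0.831). NR4A1 differed by 0.28 without mock clone 1, and IER5 by 0.39 and 0.13 without mock clones 4 and 5. The EGF family ligand list, which also holds the growth factor gene FGF2, had 4 of 6 higher (median 0.18), with FGF2 at 0.66, HBEGF at 0.71 and TGFA at 0.23 (limma adjusted p of 0.558 to 0.875). Without NCCRP1 clone 6 HBEGF differed by 0.40 and TGFA by 0.10. NF-kB subunits and feedback inhibitors had 11 of 14 higher (median 0.36), with TNFAIP3, NFKBIA and BIRC3 at 1.19, 0.79 and 1.25 (limma adjusted p of 0.209 to 0.415). Leaving out 1 clone took TNFAIP3 past the threshold without mock clone 4 (1.52, limma adjusted p = 0.0161) and BIRC3 without NCCRP1 clone 1 (1.75, limma adjusted p = 0.0456). Within runs the mean of this list differed by 0.10 in run 15 and 0.82 in run 14, whereas that of the 8 feedback genes differed by 0.44 and 0.16.

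**Figure D4:**
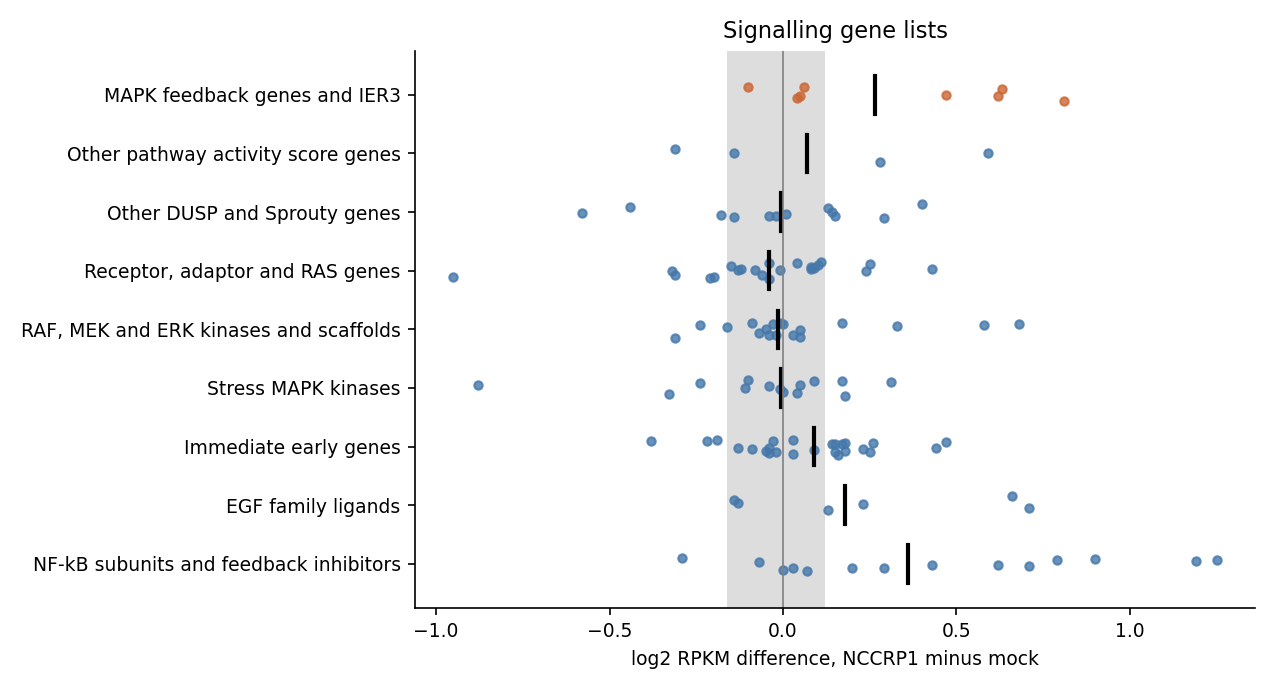
Log2 RPKM difference, NCCRP1 minus mock (horizontal axis), for each tested gene (points, spread vertically for sight) of 9 signalling lists; black bars are list medians and the grey band spans the quartiles of all genes tested, -0.16 to 0.12. The feedback genes (orange) form a group of 4 between 0.47 and 0.81 and a group of 4 near 0. MAP2K6, plotted with the stress kinases, entered only through the mock clones.

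**Figure D5:**
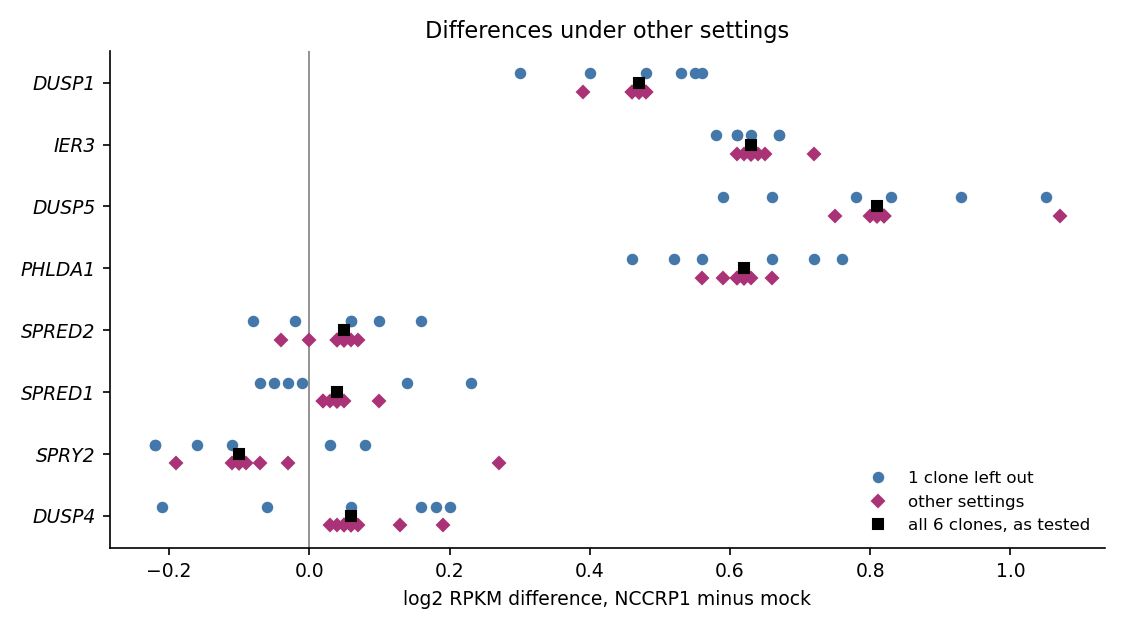
Log2 RPKM difference, NCCRP1 minus mock (horizontal axis), for each tested feedback gene with all 6 clones (squares), with 1 clone left out (circles) and under the other settings (diamonds). IER3 keeps to 0.58 to 0.72 and DUSP5 spans 0.59 to 1.07, while SPRED2, SPRED1, SPRY2 and DUSP4 lie on both sides of 0.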

How the data were processed

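The column is headed RPKM, per the file headers, and covers 40448 Entrez gene IDs in 6 libraries. The deposited values were read as log2 RPKM, made by the authors from RPKM by a logarithm whose base no header states. The base was taken from the data: unlogged to base 2, RPKM times exonic kilobases totalled 1140000 to 1150000 per library, and to base e at least 11500000. Run numbers come from the names of the deposited files. The submitters' processing notes name hg19 and bedtools 2.25.0; the aligner is not given in the sources used here. Symbols of 37997 IDs came from RefSeq (GRCh38.p14).

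Genes above 0 in at least 3 libraries (12737) were compared with limma 3.58.1 in R 4.3.3 (trended, robust, group as the sole term, two-sided, Benjamini-Hochberg, threshold 0.05). Depth was the microRNA read step that made most low values whole within 0.005 (24.1% to 34.6% of those under 8 steps), sought between 8000000 and 20000000; its multiples cannot be told apart. Counts were not recovered, so no count model was run.

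Members, lists and settings were chosen with earlier results of these data known. All members were named, with the other activity score genes, up to 3 genes of lowest p per list, and the 5 profiles nearest IER3. Settings tried: run as a term, other filters, log scales and scalings, a listed 0 as missing, GC (loess span 0.5) or neighbour trends removed, and each clone left out.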

Additional observations from a re-analysis of the deposited data

Results flagged for a closer look

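SPRY2 and DUSP4 differed in opposite directions in the sequencing runs. NCCRP1 minus mock was 0.10 within run 15 and -0.47 within run 14 for SPRY2, and 0.60 and -0.22 for DUSP4. NCCRP1 clone 1, the sole NCCRP1 clone of run 15, lay above its mock clones, for SPRY2 at log2 RPKM 0.79 against 0.76 and 0.63. In run 14 NCCRP1 clones 6 and 17 lay below mock clone 5 for both genes. SPRY2 and DUSP4 were near the lowest value listed, and counting error for SPRY2 was an SD of 0.19 at the lowest count. Direction also turned for SPRED1 (0.31 and -0.27) and SPRED2 (0.05 and -0.12). The difference between the runs was not tested, and each run holds 3 libraries.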

How the results depend on the processing

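None of the 8 tested feedback genes passed limma's test under any of 17 other settings (16 for DUSP4 and SPRY2). The difference was 0.30 to 0.56 for DUSP1, 0.59 to 1.07 for DUSP5, 0.58 to 0.72 for IER3 and 0.46 to 0.76 for PHLDA1. The count of 4 genes without overlap was 4 with libraries median-centred, quantile normalization, the GC trend removed or the neighbours' shift removed. Other settings either could not lower it or, with the run as a term, give no such count. The lowest limma adjusted p were 0.0522 for IER3 and 0.089 for DUSP5. The median difference was 0.54 with a mean log2 of at least 1, which leaves out DUSP4 and SPRY2, and otherwise moved less than the spread between clones. SPRED2 was -0.04 with the run as a term and SPRY2 0.27 with the neighbours' shift removed. Leaving out 1 clone gave -0.21 to 0.20 for DUSP4, -0.07 to 0.23 for SPRED1, -0.08 to 0.16 for SPRED2 and -0.22 to 0.08 for SPRY2. Over all genes, 13 passed, against 2 with the run as a term, 3 with no filter (genes at 0 throughout could not be fitted), 4 with log2(RPKM + 1), 1 with log2(RPKM + 0.1), 5 without robust fitting, 2 with a listed 0 as missing, 4 with the GC trend removed and 8 with the neighbours' shift removed. It ranged from 1 to 28 with 1 clone left out (4, 24 and 3 without mock clones 1, 4 and 5, and 28, 5 and 1 without NCCRP1 clones 1, 6 and 17). The cause was not tested. The labels pair no mock clone with an NCCRP1 clone, so no paired analysis was possible. Counting error at the lowest count was largest for SPRY2, DUSP4 and SPRED1, at an SD of 0.19, 0.14 and 0.11. Their within-group SDs were 0.29, 0.36 and 0.27.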
